A study of Mus musculus with 7 samples.

Results

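Protocadherins are the largest group of the cadherin superfamily, calcium-dependent adhesion proteins of the cell membrane. The clustered genes Pcdha, Pcdhb and Pcdhg stand in a row on a single chromosome; in Pcdha and Pcdhg each gene has its own promoter and variable first exon, which is spliced to constant exons that all genes of the cluster share, so that every cell can choose its own set of promoters. The non-clustered genes are separate loci that act in cell sorting in the embryo, in the nervous system and in epithelia.

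The protocadherin genes were taken as all protein-coding rows of the count table whose symbol starts with Pcdh, which gave 69 of 43629 genes. Pcdha had 14 members, Pcdhb 22, Pcdhg 21, and 12 were non-clustered. Messenger RNA of 7 libraries was counted, all from E14 mouse embryonic stem (ES) cells of the 129/Ola background. Knockout XEN (KO XEN in the plots) was Ago2-knockout cells driven towards extra-embryonic endoderm (XEN) for 5 days in serum-containing medium to which activin A (10 ng/mL) and all-trans retinoic acid (0.1 µM) were added, with 1 library of line C4 and 1 of line 5-3. Wild-type XEN (WT XEN) was wild-type E14 cells given the same treatment, with 2 libraries, A and B. Knockout ES (KO ESC) was the undifferentiated Ago2-knockout ES cells kept in serum with LIF, with 1 library of line C4 and 2 of line 5-3. Wild-type ES cells were not used here, so knockout XEN differed from knockout ES in differentiation and from wild-type XEN in genotype, and wild-type XEN from knockout ES in both. The labels do not say whether C4 and 5-3 are single clones or whether libraries came from separate cultures, so p-values measure the spread between these libraries, which may be technical.

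Total counts were 13941826 in knockout XEN C4, the shallowest library, and 33389566 to 48650113 in the others. Levels are CPM, counts scaled to the TMM-adjusted total of each library. Ago2 itself was at 122 CPM in knockout XEN C4 and 9.93 in knockout XEN 5-3, against 393 and 432 in wild-type XEN, and at 94.3 in knockout ES C4 and 9.36 and 9.64 in knockout ES 5-3. The 10 primitive endoderm markers summed to 6414 and 7696 CPM in knockout XEN, 30722 and 49003 in wild-type XEN and 383 to 390 in knockout ES, with none at 0. The 8 ES cell markers summed to 58.2 and 52.8 CPM in knockout XEN, 321 and 334 in wild-type XEN and 4031 to 4363 in knockout ES. The 9 mesenchyme markers summed to 10258 and 12629 CPM in knockout XEN, 1802 and 784 in wild-type XEN and 33.3 to 34.6 in knockout ES, where Col3a1 was at 0; Acta2 and Tagln made up most of the sum in knockout XEN. Of these 9, 7 were called higher and 1, Col1a2, lower in knockout XEN than in wild-type XEN, and Thy1 was not called. The shares over all tested genes were 22.3% higher and 23.8% lower. The 12 neural markers summed to 828 and 855 CPM in knockout XEN, 145 and 102 in wild-type XEN and 564 to 601 in knockout ES; Neurog1 was at 0 in both XEN groups. Ncam1 and Nes made up most of the neural sum in knockout XEN, and Stmn2 most of it in knockout ES. The 8 visceral endoderm markers summed to 180 and 219 CPM in knockout XEN, 13496 and 12002 in wild-type XEN and 194 to 287 in knockout ES. These sums move with many values below, and their part in them was not tested; in such bulk samples fewer cells of a type and less RNA per cell cannot be told apart.

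Of the 69 members, 39 passed the filter on low counts: all 21 Pcdhg genes, 10 non-clustered genes, 7 Pcdhb genes and a single Pcdha gene, Pcdhac2. In knockout XEN against wild-type XEN, edgeR's quasi-likelihood test with Benjamini-Hochberg adjustment over 18426 genes called 17 of the 39 higher and 2 lower at an adjusted p below 0.05, where 22.3% of all tested genes were called higher and 23.8% lower. In knockout XEN against knockout ES 36 were called higher and 0 lower, where 34.7% of all genes were called higher and 34.2% lower; no member was lower at an unadjusted p below 0.05, nor by DESeq2. In wild-type XEN against knockout ES 31 were called higher and 1 lower, against 32.1% and 30.3% of all genes. A member with reads in XEN cells alone passes the filter only because it is high there, so these counts describe the genes that passed and do not speak for the other 30.

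The median log2 fold change of the 39 genes was 1.26 in knockout XEN against wild-type XEN, where that of all tested genes was 0. It was 3.65 in knockout XEN against knockout ES, with -0.08 for all genes, and 2.58 in wild-type XEN against knockout ES, with -0.03 for all genes. Pcdh7, which had 0 counts in knockout ES, lies far above both ES cell medians even at its lower bound, so setting it there could not change them. The 3 comparisons share libraries pairwise and are given side by side.

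**Figure D1:**
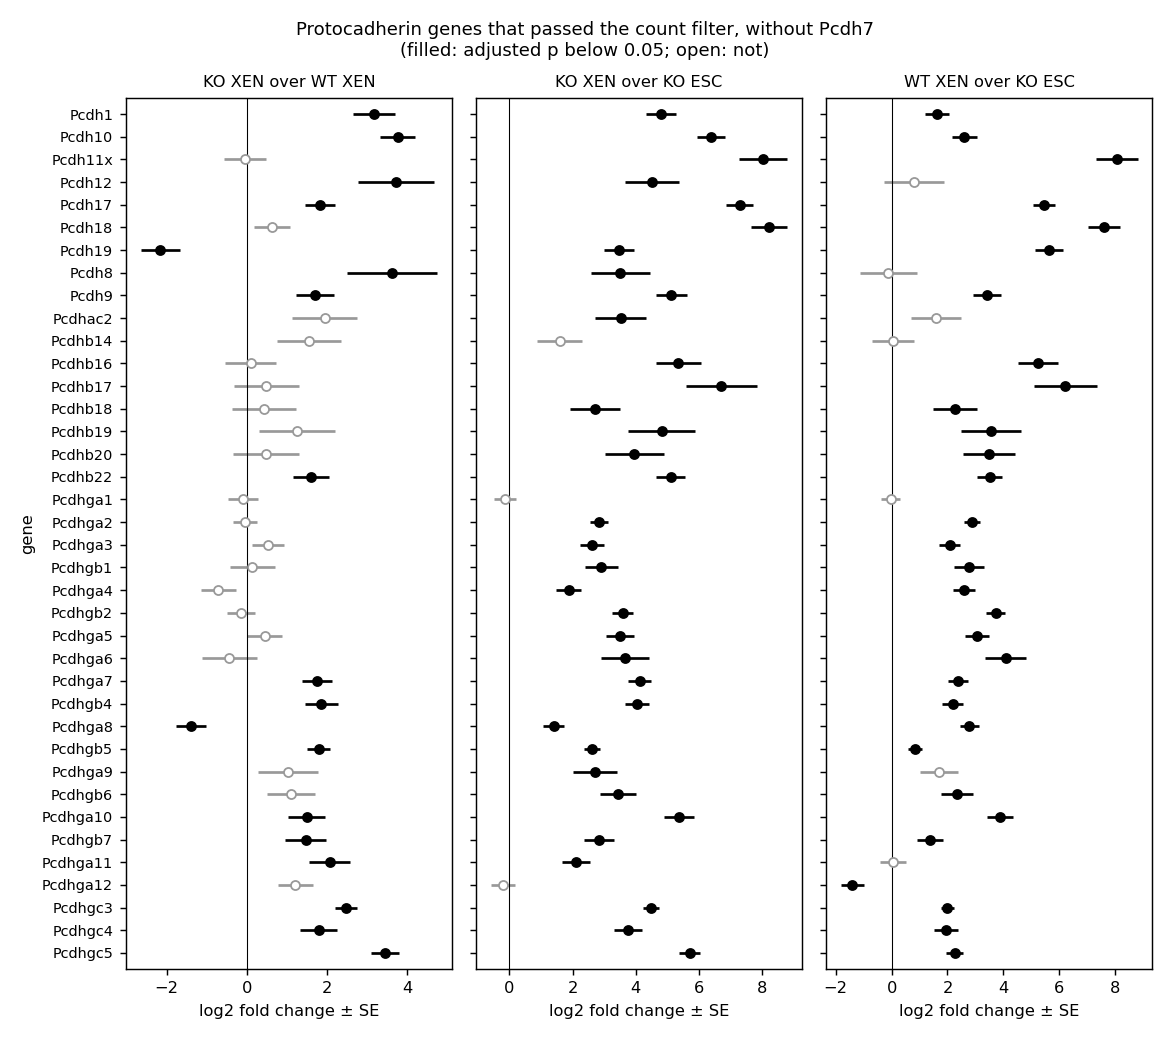
Log2 fold change (x axis, with its standard error from edgeR's quasi-likelihood fit) of 38 protocadherin genes (y axis) that passed the count filter, in knockout XEN over wild-type XEN, knockout XEN over knockout ES and wild-type XEN over knockout ES; Pcdh7 is left out because its fold over knockout ES is a lower bound. Filled points passed an adjusted p of 0.05: Pcdh19 and Pcdhga8 lie left of 0 in the first panel, and Pcdhga12 in the last.

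Among the non-clustered genes, 7 of the 10 that passed the filter were higher in knockout XEN than in wild-type XEN, and 1, Pcdh19, was lower. All 10 were higher in knockout XEN than in knockout ES, and 8 were higher in wild-type XEN than in knockout ES. Of all tested genes, 22.3% were called higher and 23.8% lower in knockout XEN against wild-type XEN. Against knockout ES, 34.7% of all genes were called higher in knockout XEN and 32.1% in wild-type XEN. Pcdh7, Pcdh9, Pcdh10, Pcdh11x, Pcdh12, Pcdh17 and Pcdh18 had only 0, 11, 9, 1, 5, 25 and 9 reads in knockout ES. They passed the filter through XEN cells, so their direction against knockout ES was set by it. Promoter windows and microRNA matches are given first, since Ago2 is the protein that carries microRNAs to their target sites in 3′ untranslated regions. RefSeq windows of 250 bases before to 50 after the start (GRCm38.p6) were at hand for 9 of the 12 genes, 10 windows in all; that of Pcdh15 lies within the annotated gene, at chr10:73821617-73821916, and not at its outermost start. Pcdh7, Pcdh10 and Pcdh19 are printed because they stand for the patterns found: 0 counts in knockout ES, a separate range in each group, and the reverse order of knockout XEN and wild-type XEN. Both strands were searched for 4 short motifs, and capitals mark each match. The first was CCAAT, the box named after it. TATAAA is the TATA box of many promoters. Retinoic acid receptors can bind repeats of AGGTCA. Factors of the GATA family can bind AGATAA.

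Pcdh7, chr5:57717831-57718130, plus strand: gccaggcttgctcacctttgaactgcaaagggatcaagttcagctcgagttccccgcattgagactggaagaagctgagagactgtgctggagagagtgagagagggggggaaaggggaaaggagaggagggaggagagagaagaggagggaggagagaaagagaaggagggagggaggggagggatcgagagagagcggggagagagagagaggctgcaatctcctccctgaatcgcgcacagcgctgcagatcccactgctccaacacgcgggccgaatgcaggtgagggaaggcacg
Pcdh10, chr3:45378148-45378447, plus strand: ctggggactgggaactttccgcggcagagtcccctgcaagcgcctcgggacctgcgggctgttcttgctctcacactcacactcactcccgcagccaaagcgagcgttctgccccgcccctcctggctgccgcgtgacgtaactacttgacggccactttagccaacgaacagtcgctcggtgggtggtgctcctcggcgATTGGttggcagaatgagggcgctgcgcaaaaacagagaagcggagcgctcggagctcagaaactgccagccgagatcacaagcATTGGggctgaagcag
Pcdh19, chrX:133688944-133689243, minus strand: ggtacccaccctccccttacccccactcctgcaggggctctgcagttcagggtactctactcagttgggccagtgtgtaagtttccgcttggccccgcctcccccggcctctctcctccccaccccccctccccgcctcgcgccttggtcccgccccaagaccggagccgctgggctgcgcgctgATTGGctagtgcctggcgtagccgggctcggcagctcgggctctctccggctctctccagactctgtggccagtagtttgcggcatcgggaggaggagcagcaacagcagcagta

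CCAAT was found in the windows of 8 of the 9 genes (Pcdh8, Pcdh9, Pcdh10, Pcdh15, Pcdh17, Pcdh18, Pcdh19 and Pcdh20), and not in that of Pcdh7. It occurs in 37.4% of all 32851 RefSeq windows, and it was added to the search after the windows had been read. TATAAA stood in the windows of Pcdh8 and Pcdh15 alone, against 13.6% of all windows. AGGTCA and AGATAA were in no member's window, against 16.3% and 11.2% of all; they are not in these letters, which says nothing about factors that bind elsewhere. The GC content of the members' windows ranged from 43.7% in Pcdh20 to 67.7% in Pcdh19, where the median of all windows was 52.7%; those of Pcdh20 and Pcdh15 lay below that median.

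The longest 3′ untranslated region of each non-clustered gene (GENCODE release M21) was searched for the 7 bases that pair with the seed, bases 2 to 8, of 4 microRNAs known from ES cells or from differentiated cells. The 3 that matched a printed gene are given with the seed in capitals.

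mmu-miR-294-3p: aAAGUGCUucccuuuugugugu
mmu-let-7a-5p: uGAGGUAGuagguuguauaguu
mmu-miR-200b-3p: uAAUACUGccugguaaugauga

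A site in each of 3 genes is shown, with the pairing bases in capitals and 11 bases on either side.

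Pcdh7, site for miR-294 at base 3607 of 3879: ctacactttaaAGCACTTgcattccgtgt
Pcdh19, site for let-7a at base 1979 of 5128: tgtactgaataCTACCTCatgcaaaatat
Pcdh8, site for miR-200b at base 203 of 596: tgaaatgtgtgCAGTATTtaatttttctt

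Among 20680 genes, 14.8% held the miR-294 site, 9.07% the let-7a site and 13.3% the miR-200b site in their longest 3′ untranslated region. Pcdh9, Pcdh10, Pcdh11x, Pcdh12, Pcdh17, Pcdh18 and Pcdh20 held none of the 4 sites searched, the last being GCACTTT for miR-17. Pcdh1 held 1 let-7a and 1 miR-294 site in 4042 bases, and Pcdh15 held 2 miR-294 sites, at bases 1000 and 2259 of 3665. A match describes the letters and was not tested as a site. All Pcdha genes share a 3′ untranslated region of 2401 bases, which holds 2 GCACTTT and 1 AGCACTT. The Pcdhg genes share one of 1741 or 1744 bases, which holds no match to any of the 4. Each Pcdhb gene has its own, and 7 of the 22 held a match: Pcdhb4, Pcdhb6, Pcdhb16, Pcdhb17, Pcdhb18, Pcdhb19 and Pcdhb22.

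Pcdh1, Pcdh7, Pcdh9 and Pcdh11x form the delta-1 branch, with long cytoplasmic tails. Pcdh1, an adhesion molecule of airway epithelium, lies on chromosome 18, 38185914 to 38212053. It was at 336 and 219 CPM in knockout XEN, 39.7 and 21.9 in wild-type XEN, and 4.63 in knockout ES C4 with 13.4 and 11.9 in knockout ES 5-3. The groups did not overlap, and the gene had a log2 fold change of 3.17 ± 0.52 (SE) in knockout XEN against wild-type XEN (adjusted p = 0.00216, edgeR). Against knockout ES it was 4.80 ± 0.48 higher in knockout XEN (adjusted p = 5.86e-05) and 1.63 ± 0.44 higher in wild-type XEN (adjusted p = 0.0127), the last call being lost without wild-type XEN A (adjusted p = 0.091).

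Pcdh7, known as brain and heart protocadherin, lies on chromosome 5, 57717967 to 58133230. It had 0 counts in all 3 knockout ES libraries. In knockout XEN it was at 107 and 141 CPM, and in wild-type XEN at 18.4 and 12.4 CPM. Against a floor of 3 counts over the knockout ES group, it was at least 5813-fold higher in knockout XEN (adjusted p = 4.14e-06) and at least 685.3-fold higher in wild-type XEN (adjusted p = 1.73e-05). Knockout XEN exceeded wild-type XEN by 3.01 ± 0.28 on the log2 scale (adjusted p = 0.000658). The antisense gene 4932441J04Rik, which overlaps it, had 34 and 125 counts in knockout XEN, 11 and 6 in wild-type XEN and 0 in knockout ES. If counting ignored strand, reads of the pair cannot be told apart where they overlap. That leaves 8369 of the 10604 exon bases of Pcdh7 free.

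Pcdh9, a gene of the developing brain, was at 2.32 and 3.66 CPM in knockout XEN, 1.04 and 0.802 in wild-type XEN and 0.0600 to 0.120 in knockout ES. Its libraries fell into 3 separate ranges, with a log2 fold change of 1.71 ± 0.48 in knockout XEN against wild-type XEN (adjusted p = 0.0203); the call was lost without knockout XEN 5-3 (adjusted p = 0.166), wild-type XEN A (0.0664) or wild-type XEN B (0.112). Pcdh11x, an X-linked gene, behaved otherwise: it was at 2.10 and 3.48 CPM in knockout XEN and 2.25 and 3.57 in wild-type XEN, while knockout ES held 1 read in all. The ratio to knockout ES was 409 in knockout XEN (95% interval of counting error 72.23 to 16270) and 387 in wild-type XEN (68.71 to 15360). The log2 difference of knockout XEN from wild-type XEN was -0.04 ± 0.52 (adjusted p = 0.958).

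Pcdh8, Pcdh10, Pcdh17, Pcdh18 and Pcdh19 form the delta-2 branch. Pcdh10, also called OL-protocadherin, lies on chromosome 3, 45378398 to 45435623. It was at 6.68 and 5.01 CPM in knockout XEN, 0.411 and 0.442 in wild-type XEN and 0.0480 to 0.0800 in knockout ES. No group overlapped another, and the log2 fold change was 3.76 ± 0.44 in knockout XEN against wild-type XEN (adjusted p = 0.000499) and 2.60 ± 0.45 in wild-type XEN against knockout ES (adjusted p = 0.00151).

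Pcdh17, which acts at synapses and on growing axons, was at 19.2 and 40.3 CPM in knockout XEN, 7.86 and 8.98 in wild-type XEN and 0.140 to 0.216 in knockout ES. It rose by 7.28 ± 0.42 (log2) in knockout XEN and by 5.45 ± 0.40 in wild-type XEN against knockout ES (adjusted p = 4.64e-06 and 2.39e-05). Its knockout XEN level was 1.82 ± 0.37 above wild-type XEN (adjusted p = 0.00515), and not called without knockout XEN 5-3 (adjusted p = 0.0556). Pcdh18, whose protein binds the adaptor Dab1, was at 15.0 and 27.3 CPM in knockout XEN and 16.7 and 10.9 in wild-type XEN, and these ranges overlapped. With 0.0240 to 0.144 CPM in knockout ES, it was 8.22 ± 0.57 higher in knockout XEN and 7.60 ± 0.56 higher in wild-type XEN (adjusted p = 1.03e-05 and 2.46e-05), whereas knockout XEN against wild-type XEN gave 0.62 ± 0.44 (adjusted p = 0.285).

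Pcdh19, an X-linked gene whose loss in humans causes a form of epilepsy, was the non-clustered gene called in the other direction. It lies on the X chromosome, 133582860 to 133688987, and was at 4.64 and 10.2 CPM in knockout XEN, 21.7 and 45.2 in wild-type XEN and 0.456 to 0.860 in knockout ES. Every knockout XEN library lay below every wild-type XEN library and above every knockout ES library. The log2 fold change was -2.16 ± 0.49 in knockout XEN against wild-type XEN (adjusted p = 0.00861) and 5.63 ± 0.49 in wild-type XEN against knockout ES (adjusted p = 4.86e-05). The call against wild-type XEN did not pass without wild-type XEN B (adjusted p = 0.0644) or without knockout XEN C4 (adjusted p = 0.0505). Its direction was that of the primitive endoderm marker sum, and the part of that sum was not tested.

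Pcdh8, known for a role in cell sorting of the paraxial mesoderm in frogs, was uneven between the knockout lines. It was at 0.871 CPM in knockout XEN C4 and 6.86 in knockout XEN 5-3, 0.438 and 0.193 in wild-type XEN, and 0.0720 in knockout ES C4 with 0.384 and 0.560 in knockout ES 5-3. Line C4 was the lower one in both states. The call of 3.63 ± 1.12 in knockout XEN against wild-type XEN (adjusted p = 0.0304) was lost without knockout XEN 5-3 (1.37, adjusted p = 0.409), without wild-type XEN A (adjusted p = 0.0827) and without wild-type XEN B (adjusted p = 0.162). Without knockout XEN 5-3 its call against knockout ES was lost too (adjusted p = 0.344).

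Of the rest, Pcdh12, an endothelial and trophoblast protocadherin, was at 1.52 and 0.461 CPM in knockout XEN, 0.110 and 0.0276 in wild-type XEN and 0.0200 to 0.0720 in knockout ES. It was called in knockout XEN against wild-type XEN (3.72 ± 0.94, adjusted p = 0.0138), though on 5 reads in wild-type XEN, and not without wild-type XEN B (adjusted p = 0.101) or knockout XEN C4 (adjusted p = 0.097). The 7 blood and endothelium markers summed to 36.3 and 44.4 CPM in knockout XEN, 26.5 and 24.0 in wild-type XEN and 86.6 to 110 in knockout ES. Most of the sum in knockout XEN was Kdr (34.5 and 42.8 CPM, against 15.3 and 17.5 in wild-type XEN), while Cdh5 was at 0.435 and 0.369 CPM in knockout XEN and 5.67 and 4.81 in wild-type XEN, and Hbb-bh1 and Ptprc were at 0 in knockout XEN. Their part in the Pcdh12 result was not tested. Pcdh15, part of the tip link of hair cells, had 7 reads in knockout XEN, 1 in wild-type XEN and 1 in knockout ES, and Pcdh20 had 5, 2 and 0. Neither was tested.

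**Figure D2:**
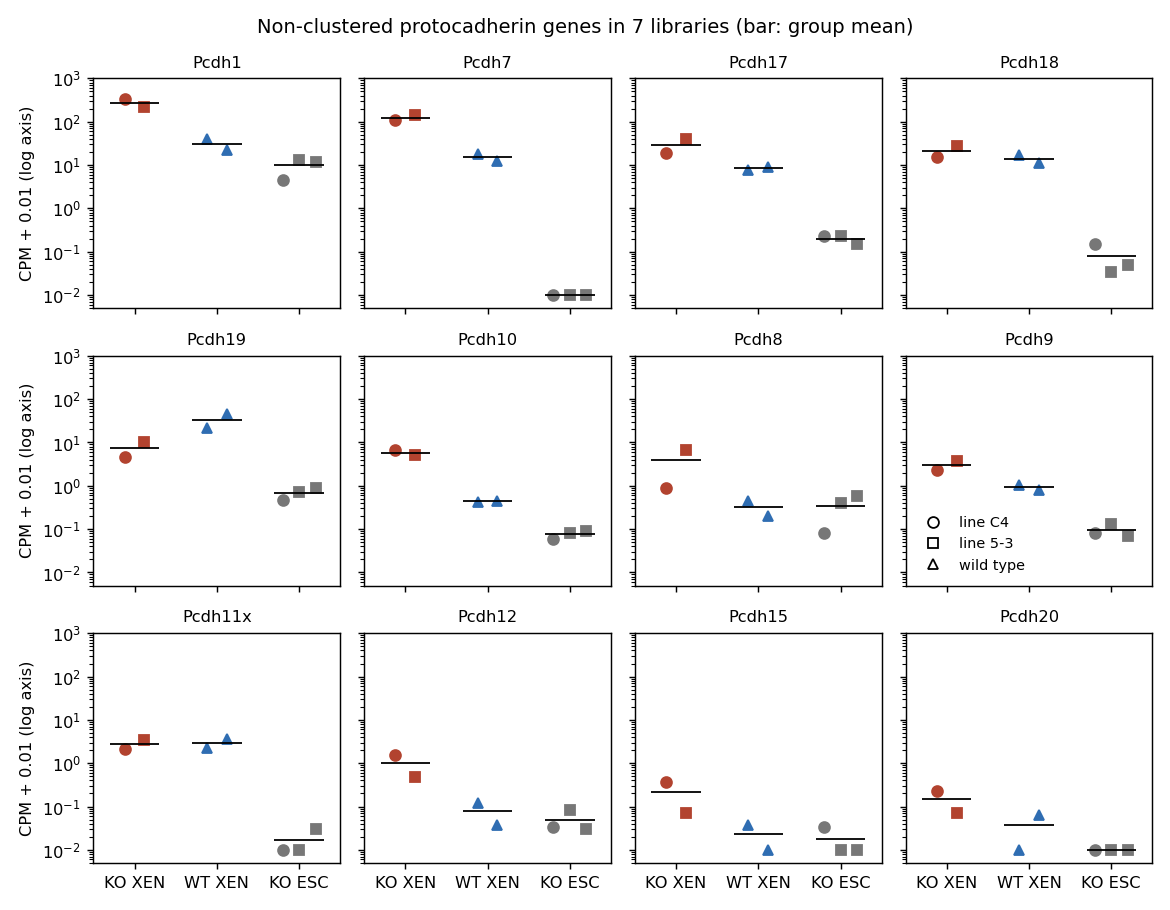
Level of the 12 non-clustered genes, 1 panel each, in knockout XEN, wild-type XEN and knockout ES (x axis), as CPM + 0.01 on a log axis; each point is 1 library, its shape the line, and the bar the group mean. Pcdh7 sits at the floor in knockout ES, Pcdh11x and Pcdh18 overlap between knockout XEN and wild-type XEN, and Pcdh19 is lower in knockout XEN than in wild-type XEN.

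Per kb of exon, Pcdh1 led in knockout XEN with 31.5 ± 9.4 CPM per kb (SD, n = 2), followed by Pcdh7 with 11.7 ± 2.2 and Pcdh18 with 3.95 ± 1.6. Pcdh1 and Pcdh7 did not overlap, nor did Pcdh7 and Pcdh18, whereas Pcdh18 and Pcdh17 did. In wild-type XEN Pcdh1 (3.50 ± 1.4), Pcdh19 (3.20 ± 1.6) and Pcdh18 (2.57 ± 0.77) overlapped each other in that order, and Pcdh7 (1.45 ± 0.40) lay below them. In knockout ES Pcdh1 alone stood out, at 1.13 ± 0.53 CPM per kb (n = 3), with Pcdh8 next at 0.0746 ± 0.054.

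The Pcdha cluster (chromosome 18, 36930184 to 37187661) was close to silent by these counts. Its 14 genes summed to 1.16 and 1.02 CPM in knockout XEN, 0.274 and 0.359 in wild-type XEN and 0.100 to 0.168 in knockout ES, from 49, 23 and 17 reads per group. Knockout XEN was highest and the groups did not overlap. Genes of Pcdha own 8.56% to 61.1% of their annotated exon length, the remainder being shared. The sources used here do not say how reads on shared exons were handled. Pcdha6 and Pcdha8, which hold the shared exons too, had 0 reads in all 7 libraries. The sums rest on the variable exons if shared reads were dropped.

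Pcdhac2, the last variable exon of the cluster and a type that neurons use without choice, was at 0.435 and 0.338 CPM in knockout XEN, 0.0822 and 0.111 in wild-type XEN and 0 to 0.0480 in knockout ES. It was higher in knockout XEN than in knockout ES (3.52 ± 0.81, adjusted p = 0.00502), and the difference from wild-type XEN was 1.94 ± 0.81 (adjusted p = 0.085). Pcdhac2 had 17 reads in knockout XEN, 7 in wild-type XEN and 4 in knockout ES. It passed the filter through knockout XEN alone, so the direction of both differences was set by it. Pcdha12 had 8 reads in knockout XEN, 6 in wild-type XEN and 0 in knockout ES, and Pcdha1 had 6, 3 and 2.

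The Pcdhb cluster (37264938 to 37524479), whose genes are single exons without a shared constant part, summed to 11.1 and 23.1 CPM in knockout XEN, 6.46 and 9.89 in wild-type XEN, and 1.51 in knockout ES C4 with 0.576 and 0.540 in knockout ES 5-3. The 12 genes with 10 or more reads in knockout XEN 5-3 compare with 2 in knockout XEN C4, the shallower library, and with 6 in each wild-type XEN library. Of the 22 genes 15 were not tested. Of the 7 that passed the filter, 6 were higher in knockout XEN than in knockout ES, where 34.7% of all genes were. In wild-type XEN 6 were higher than in knockout ES, against 32.1%. Pcdhb16, Pcdhb17, Pcdhb18, Pcdhb19, Pcdhb20 and Pcdhb22 had only 7, 1, 13, 5, 4 and 33 reads in knockout ES. These 6 passed the filter through XEN cells, so their direction against knockout ES was set by it. Of the 7, 1 was higher in knockout XEN than in wild-type XEN, where 22.3% of all genes were.

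That one was Pcdhb22, at the end of the cluster, with 6.17 and 11 CPM in knockout XEN, 2.85 in both wild-type XEN libraries and 0.144 to 0.360 in knockout ES. It was the highest Pcdhb gene in every library of knockout XEN. Its log2 fold change was 1.60 ± 0.45 in knockout XEN against wild-type XEN (adjusted p = 0.0212), a call lost without knockout XEN 5-3 (adjusted p = 0.188), wild-type XEN A (adjusted p = 0.0961) or wild-type XEN B (adjusted p = 0.0947), and 5.10 ± 0.46 against knockout ES (adjusted p = 3.47e-05).

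Pcdhb16 was at 1.23 and 3.26 CPM in knockout XEN, 1.37 and 2.93 in wild-type XEN and 0.0200 to 0.0720 in knockout ES. Knockout XEN and wild-type XEN covered the same range, with a log2 difference of 0.09 ± 0.63 (adjusted p = 0.921), while both lay above knockout ES by 5.34 ± 0.71 and 5.25 ± 0.71 (adjusted p = 0.000292 and 0.00042). Pcdhb17 had 60 reads in knockout XEN, 59 in wild-type XEN and 1 in knockout ES, a ratio to knockout ES of 172.8 (29.85 to 6938) and 108.2 (18.68 to 4346). Pcdhb19 was at 0.290 and 1.91 CPM in knockout XEN, 0.383 and 0.580 in wild-type XEN and 0 to 0.0960 in knockout ES, and its call against knockout ES did not hold without knockout XEN 5-3 (adjusted p = 0.129).

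**Figure D3:**
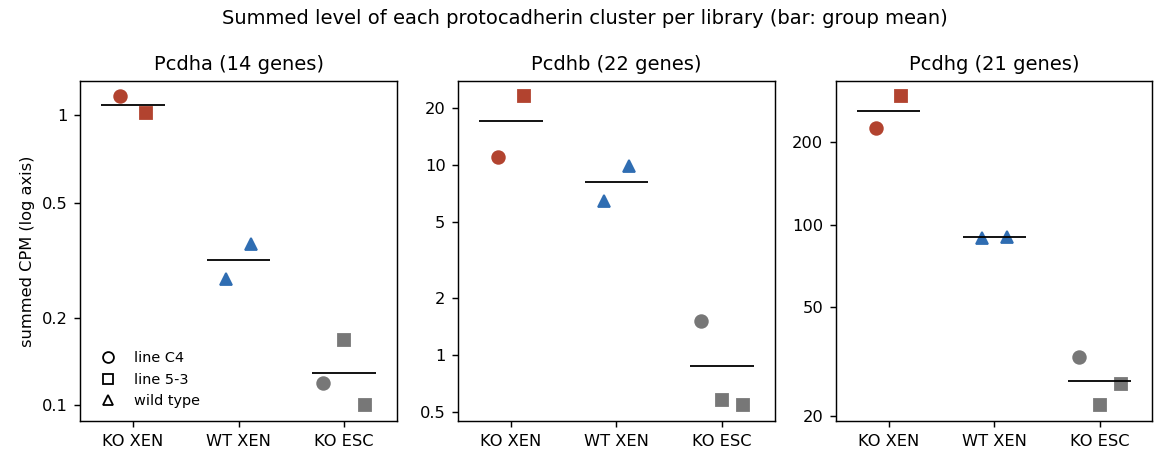
Summed CPM of all genes of the Pcdha, Pcdhb and Pcdhg clusters (y axis, log scale) in knockout XEN, wild-type XEN and knockout ES (x axis); each point is 1 library, its shape the line, and the bar the group mean. In each cluster every knockout XEN library lies above every wild-type XEN library and every knockout ES library is lowest; Pcdhg spans 225 and 293 CPM in knockout XEN against 89.4 and 90.2 in wild-type XEN.

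The Pcdhg cluster (37661793 to 37841873) held most of the clustered reads: 225 and 293 CPM in knockout XEN, 89.4 and 90.2 in wild-type XEN, and 32.9, 21.9 and 26.1 in knockout ES. All 21 genes passed the filter. In knockout XEN against wild-type XEN 9 were higher, 1 lower and 11 not called. Of all tested genes 22.3% were called higher there and 23.8% lower. Against knockout ES 19 were higher in knockout XEN, where 34.7% of all genes were. Pcdhga6, with 6 reads in knockout ES, passed the filter through XEN cells, so its direction against knockout ES was set by it. In wild-type XEN 17 were higher and 1 lower than in knockout ES, against 32.1% and 30.3% of all genes.

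The largest log2 fold changes over wild-type XEN within the cluster were those of Pcdhgc5 and Pcdhgc3. They belong to the C-type genes at its 3′ end, which differ in sequence from the A and B types and are not subject to random choice in neurons. Pcdhgc3 was at 92.4 and 116 CPM in knockout XEN, 23.7 and 13.8 in wild-type XEN and 4.34 to 4.94 in knockout ES, with log2 fold changes of 2.47 ± 0.28 in knockout XEN against wild-type XEN (adjusted p = 0.000441) and 2 ± 0.24 in wild-type XEN against knockout ES (adjusted p = 0.000243). Pcdhgc5 was at 25.8 and 38.6 CPM in knockout XEN, 3.67 and 2.27 in wild-type XEN and 0.552 to 0.720 in knockout ES, a log2 fold change of 3.44 ± 0.35 in knockout XEN against wild-type XEN (adjusted p = 0.000328). Neither call changed in the 13 alternative settings. Pcdhgc4, which the naming rule did not pick, rose too (1.79 ± 0.46, adjusted p = 0.0144), though not without wild-type XEN A, wild-type XEN B or knockout XEN 5-3.

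The C-type genes held 54.1% of Pcdhg reads in knockout XEN C4 (Wilson 95% interval 52.3 to 55.8) and 55.2% in knockout XEN 5-3 (54.2 to 56.2). In wild-type XEN they held 32.4% (30.8 to 34.0) in A and 19.7% (18.4 to 21.1) in B, and in knockout ES 16.0% in C4 and 26.1% and 23.6% in 5-3. The knockout XEN libraries stood apart from all others by more than counting error, and wild-type XEN A and B differed from each other too. No test of the share over libraries was run. The summed CPM of C-type genes was 142 ± 28 in knockout XEN, 23.3 ± 7.9 in wild-type XEN and 5.72 ± 0.45 in knockout ES (SD, n = 2, 2 and 3). That of the 12 A-type genes was 73.7 ± 12 in knockout XEN, 46.0 ± 5.3 in wild-type XEN and 16.3 ± 4.9 in knockout ES.

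**Figure D4:**
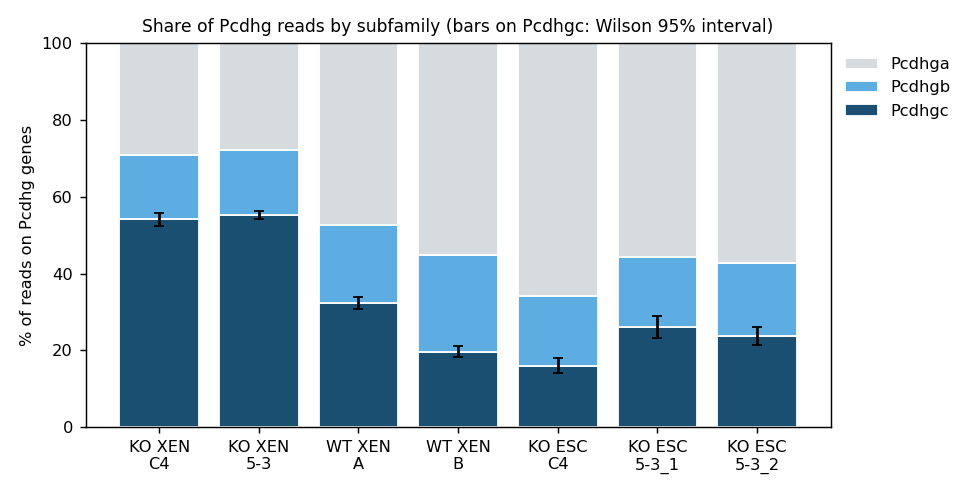
Share of reads on Pcdhg genes (y axis, percent) held by the A-, B- and C-type genes in each library (x axis); the bars drawn on the C-type share are Wilson 95% intervals of counting error. The C-type share is 54.1% and 55.2% in knockout XEN and 32.4% or less in every wild-type XEN and knockout ES library.

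The A- and B-type genes are given in their order along the cluster, and position was not tested. Of the first 8 variable exons, Pcdhga1 to Pcdhga6, none was called between knockout XEN and wild-type XEN. Of the 10 A- and B-type exons after them, 6 were called higher and 1, Pcdhga8, lower, and Pcdhga9, Pcdhgb6 and Pcdhga12 were not called. Of these calls, that of Pcdhgb5 alone held in all 13 alternatives. Pcdhga2 was at 6.97 and 8.86 CPM in knockout XEN, 7.12 and 9.29 in wild-type XEN and 1.01 to 1.25 in knockout ES, and Pcdhgb2 at 5.44 and 7.23 in knockout XEN, 5.64 and 8.37 in wild-type XEN and 0.456 to 0.624 in knockout ES. Both overlapped between the XEN groups, with log2 differences of -0.05 ± 0.30 and -0.14 ± 0.35 (adjusted p = 0.915 and 0.772), and both were above knockout ES by 2.82 to 3.73 on the log2 scale.

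Further along, Pcdhga7 was at 9.29 and 13.5 CPM in knockout XEN, 3.07 and 3.70 in wild-type XEN and 0.432 to 0.820 in knockout ES. Pcdhgb4 was at 10.4 and 13.3 CPM in knockout XEN, 2.46 and 4.09 in wild-type XEN and 0.560 to 0.984 in knockout ES. Pcdhgb5 was at 12 and 16.7 CPM in knockout XEN, 4.11 and 4.17 in wild-type XEN and 2.3 to 2.4 in knockout ES. In each the XEN groups were apart, with log2 fold changes in knockout XEN against wild-type XEN of 1.75 ± 0.39, 1.86 ± 0.40 and 1.79 ± 0.28 (adjusted p = 0.0076, 0.00724 and 0.00169). The first pair lost the call without wild-type XEN A (adjusted p = 0.0531 and 0.0515) or knockout XEN 5-3 (0.0713 and 0.0524).

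Pcdhga8, between Pcdhgb4 and Pcdhgb5, went the other way. It was at 2.18 and 3.11 CPM in knockout XEN, 6.22 and 7.68 in wild-type XEN and 0.792 to 1.22 in knockout ES. The knockout XEN libraries lay between the other groups, with a log2 fold change of -1.38 ± 0.37 against wild-type XEN (adjusted p = 0.0178) and 1.4 ± 0.34 against knockout ES (adjusted p = 0.0067). The difference from wild-type XEN was not called without wild-type XEN B (adjusted p = 0.0898) or knockout XEN C4 (adjusted p = 0.0965), nor was that from knockout ES without knockout XEN 5-3 (adjusted p = 0.0773).

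Pcdhga10 was at 16.3 and 18.7 CPM in knockout XEN, 7.07 and 5.36 in wild-type XEN and 0.240 to 0.744 in knockout ES. It was the A-type gene with the highest mean CPM in knockout XEN, though not in wild-type XEN or knockout ES, and was 1.5 ± 0.46 above wild-type XEN (adjusted p = 0.03) and 5.37 ± 0.47 above knockout ES (adjusted p = 3.18e-05). The call over wild-type XEN was lost in turn without each of the 4 XEN libraries (adjusted p = 0.07995 to 0.1513). Gm26672, an antisense gene over Pcdhga10 to Pcdhga12, had 4.58 to 5.66 CPM in knockout XEN, 2.05 to 2.25 in wild-type XEN and 1.42 to 1.73 in knockout ES. Its reads may mix with theirs if counting ignored strand, which was not tested. In GENCODE M21 it covers all own exon bases of Pcdhga10. Pcdhga10 had 833 reads in knockout XEN, 452 in wild-type XEN and 55 in knockout ES, and Gm26672 had 227, 156 and 202.

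Pcdhga1 and Pcdhga12, chosen after their values were seen, were no higher in XEN cells. Pcdhga1 was at 3.63 and 4.18 CPM in knockout XEN, 4.03 and 4.37 in wild-type XEN and 3.19 to 5.97 in knockout ES. Pcdhga12 was at 2.61 and 3.91 CPM in knockout XEN, 1.04 and 1.80 in wild-type XEN and 2.88 to 4.46 in knockout ES, and was lower in wild-type XEN than in knockout ES (-1.41 ± 0.40, adjusted p = 0.0165) unless wild-type XEN A was left out. Pcdhga11, likewise chosen after the fact, was at 12.3 and 9.90 CPM in knockout XEN, 2.60 and 2.68 in wild-type XEN and 1.54 to 4.25 in knockout ES, so that wild-type XEN lay within the range of knockout ES.

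**Figure D5:**
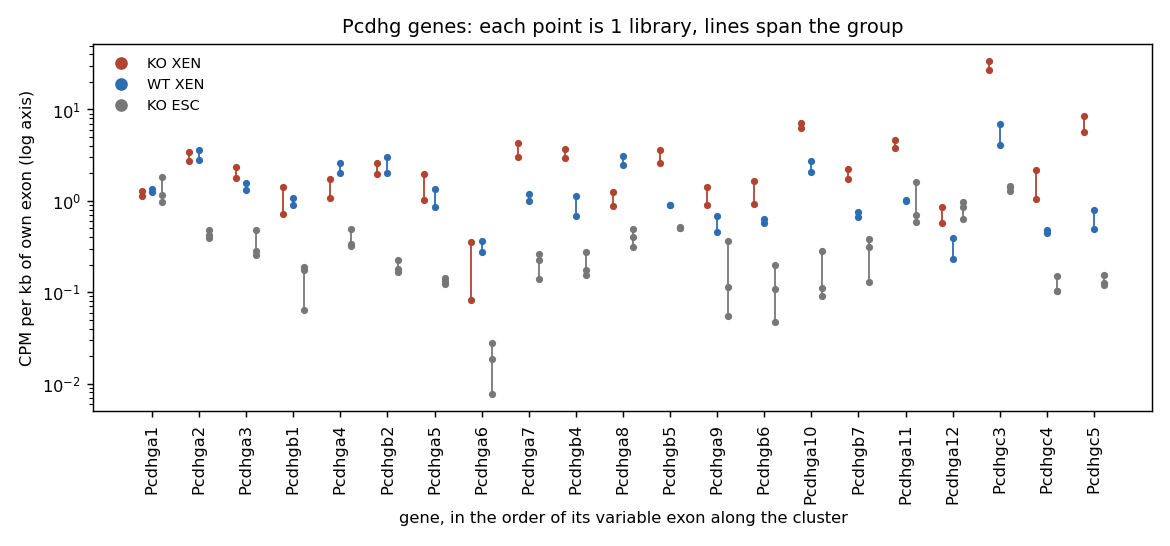
Level of the 21 Pcdhg genes in CPM per kb of own exon (y axis, log scale), in the order of their variable exons along the cluster (x axis), for knockout XEN, wild-type XEN and knockout ES; points are libraries and lines span each group. Both knockout XEN libraries lie above both wild-type XEN libraries at Pcdhga3 and from Pcdhga7 on except at Pcdhga8, where they lie below, as they do at Pcdhga4, and Pcdhgc3 is the highest gene of knockout XEN.

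Per kb of own exon, Pcdhgc3 led the cluster in knockout XEN with 30.8 ± 4.9 CPM per kb, well clear of Pcdhgc5 (7 ± 2.0) and Pcdhga10 (6.70 ± 0.64), which overlapped each other. In wild-type XEN Pcdhgc3 (5.55 ± 2.1) was followed by Pcdhga2 (3.19 ± 0.60) and Pcdhga8 (2.78 ± 0.41), the last pair overlapping, and Pcdhgc5 (0.644 ± 0.22) ranked 16 of 21. In knockout ES Pcdhgc3 (1.39 ± 0.093) and Pcdhga1 (1.33 ± 0.45) overlapped at the top.

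The knockout lines C4 and 5-3 were also compared with each other. With differentiation as a term over 17887 genes, 0 of the 37 members tested were called between C4 and 5-3 (edgeR), where 0.0447% of all genes were called higher and 0.00559% lower in C4. At an unadjusted p below 0.05, 1 member was higher and 3 were lower, and DESeq2 called 1, Pcdh8, lower in C4. The fit had 2 residual degrees of freedom, so that differences between lines may go unseen, and single libraries decided it. With either knockout XEN library left out, the line term rests on knockout ES alone, 1 library of C4 against 2 of 5-3. Both fits are then the same contrast within knockout ES and do not compare the lines across states. Without knockout ES C4 the term rests on 1 knockout XEN library of each line. Calls from such fits are not counted here. Pcdh1 was lower in C4 in knockout ES (4.63 CPM against 13.4 and 11.9) and higher in C4 in knockout XEN (336 against 219). Pcdhga10 was higher in C4 in knockout ES (0.744 against 0.288 and 0.240) and lower in knockout XEN (16.3 against 18.7). Pcdh8 was lower and Pcdhga11 higher in C4 in both states. The change with differentiation was not called as different between the lines for any of 39 members (edgeR; 1 higher and 6 lower at an unadjusted p below 0.05; smallest adjusted p 0.428).

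The calls in knockout XEN against wild-type XEN depended on single libraries, for the members and for all genes. The 17 higher calls became 8 of 44 members tested without wild-type XEN A, 9 of 44 without wild-type XEN B and 8 of 40 without knockout XEN 5-3. The share of all genes called higher was 16.2%, 12.9% and 13.4% in these fits, against 22.3% with all libraries. The number of members tested changed because the filter was run anew. In the same comparison the 2 lower calls became 0 without wild-type XEN B or knockout XEN C4. Pcdh1, Pcdh7, Pcdh10, Pcdhgc3, Pcdhgc5 and Pcdhgb5 were called in all 13 alternatives. Against knockout ES, the 36 calls in knockout XEN became 37, 36 and 36 of 39 members without knockout ES C4, 5-3_1 and 5-3_2. Of all genes 34%, 31.9% and 31.4% were called higher in these fits. With a XEN library left out, the filter admitted other members, so those counts are not set beside the 36. Without knockout XEN 5-3 some of the 36 calls were lost, among them those of Pcdh8, Pcdhb19 and Pcdhga8.

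Genes that act on protocadherins were read from lists. Of 20 regulators of clustered promoters, 12 fell and 2 rose in knockout XEN against wild-type XEN (median log2 -0.89, against 0 for all genes), where 23.8% of all genes were called lower. Against knockout ES 16 fell and 3 rose in knockout XEN (median -1.64), where 34.2% of all genes were called lower. The cohesin subunit Smc3 was at 37.7 and 38.6 CPM in knockout XEN, 120 and 196 in wild-type XEN and 382 to 436 in knockout ES. Ctcf, the factor that holds promoter and enhancer together with cohesin, was at 70.0 and 75.2 CPM in knockout XEN, 89.6 and 109 in wild-type XEN and 193 to 214 in knockout ES, a log2 fold change of -0.45 ± 0.15 in knockout XEN against wild-type XEN (adjusted p = 0.0432). Dnmt3b, a methylase that acts on clustered promoters, was at 10.4 and 14.2 CPM in knockout XEN, 262 and 129 in wild-type XEN and 319 to 406 in knockout ES, and its cofactor Dnmt3l at 1.67 and 1.54 CPM in knockout XEN, 97.9 and 119 in wild-type XEN and 382 to 473 in knockout ES. Wiz and Dnmt3a rose in knockout XEN against wild-type XEN, by 0.90 ± 0.14 and 1.05 ± 0.24 (adjusted p = 0.00156 and 0.00924).

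Of 8 genes of membrane cleavage, which sheds protocadherin ectodomains and tails, 6 rose in knockout XEN against knockout ES (median log2 1.5, where 34.7% of all genes were called higher) and 6 in wild-type XEN against knockout ES (median 1.82, where 32.1% were). In knockout XEN against wild-type XEN 3 fell (median -0.61, where 23.8% of all genes were called lower), among them Adam10 (118 and 169 CPM in knockout XEN, 278 and 364 in wild-type XEN, 39.3 to 46.8 in knockout ES). Of 17 cytoplasmic partners 6 rose and 3 fell in knockout XEN against wild-type XEN (median log2 0.34, against 0 for all genes), where 22.3% of all genes were called higher and 23.8% lower, so the counts are not far from that background. Ptk2b, the kinase that gamma and alpha tails restrain, rose by 2.36 ± 0.36 (adjusted p = 0.0015), and Nckap1, of the actin-regulating WAVE complex that Pcdh10 and Pcdh17 recruit, fell by 1.80 ± 0.19 on the log2 scale (adjusted p = 0.000353). Of 9 hair cell partners of Pcdh15, 6 were tested, with 1 higher (Cdh23) and 1 lower (Myo7a) in knockout XEN against wild-type XEN. This is near the 22.3% and 23.8% of all genes. Of 17 other large cadherins 14 were tested, and 8 rose and 2 fell in knockout XEN against wild-type XEN (median log2 1.69), where 22.3% of all genes were called higher. Fat1 was at 1822.5 and 1380.1 CPM in knockout XEN, 354 and 317 in wild-type XEN and 315 to 363 in knockout ES. Dchs1 was at 113 and 234 CPM in knockout XEN, 15.6 and 9.54 in wild-type XEN and 0.360 to 0.780 in knockout ES. Its partner Fat4 was at 125 and 238 CPM in knockout XEN, 49.3 and 33.7 in wild-type XEN and 0.0200 to 0.0720 in knockout ES.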

How the data were processed

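All 7 libraries were used. Per the labels' protocols, Trizol RNA was made into poly(A) TruSeq libraries; the submitters' processing notes name STAR 2.4.2a, featureCounts 1.4.5-p1 and the build mm10. The authors deposited raw counts per Ensembl gene. Strand setting, annotation and the treatment of shared reads are not given in the sources used here. Symbols and own exon length (exon bases shared with no other gene on the strand) come from GENCODE M21 (GRCm38), matched for 42462 of 43629 IDs; the symbol Pcdha11 stands on 2 IDs. Pcdhgb8, a polymorphic pseudogene, is not a member.

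A single edgeR 4.0.16 quasi-likelihood fit (R 4.3.3) held all 7 libraries in 3 groups, with TMM scaling, filterByExpr and Benjamini-Hochberg adjustment; DESeq2 1.42.0 was an alternative. The SE is the size of the log2 fold change divided by the root of F. Lines C4 and 5-3 are the same cell lines in knockout XEN and knockout ES, which pairs those libraries by the labels; their deviations correlated with an r of 0.0797 across genes. The fit was also run on simulated counts, with a single spread for all genes and few changed genes. Those settings differ from these data, and no result here rests on that run. Counting error alone is covered by the intervals and floors.

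The members, lists and naming rule were chosen with earlier results of these data known. The rule names every non-clustered gene, the 3 genes per cluster with the highest mean CPM, and up to 4 per cluster and comparison with the smallest adjusted p, if called and above 1 CPM on average in the higher group. For related lists it names up to 4 called genes above 10 CPM, of which some are given. Cdh23, Dnmt3a, Wiz and Pcdhgc4 fall outside it and were chosen after their values were seen. The CCAAT search was added after the windows were read.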

Additional observations from a re-analysis of the deposited data

Results flagged for a closer look

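The ratio of knockout XEN to knockout ES lay on opposite sides of 1 in the 2 knockout lines for a pair of genes. For Pcdhb14 it was 0.8066 in line C4 and 7.057 in line 5-3. The ratio in C4 rests on 4 reads in knockout XEN against 15 in knockout ES, so a fall there cannot be told from no change. For Pcdhga1 the ratios were 0.6074 in C4, from 50 reads in knockout XEN against 249 in knockout ES, and 1.207 in 5-3. The difference between the lines did not pass edgeR's interaction test for either gene (adjusted p = 0.455 and 0.556, 2 residual degrees of freedom).

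Pcdhgb8, annotated as a polymorphic pseudogene and so outside the comparisons, had reads in every library, with a mean of 1.703 CPM in knockout XEN, 1.047 in wild-type XEN and 1.802 in knockout ES. In knockout ES it was at 3.72 CPM in C4 and at 0.768 and 0.920 in 5-3.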

How the results depend on the processing

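Results were recomputed with RLE scaling, DESeq2, no low-count filter, only the groups compared, line as a replicate block, without both C4 libraries and without each library in turn. No result reversed. Over the named genes tested in the 3 group comparisons with all libraries, 37 values lost their call and 1 (Pcdhac2 in knockout XEN against wild-type XEN) gained it. All other values of these genes stayed on their side of the threshold. The line comparison and genes below the filter are not in these counts. With no filter 45 of 67 members were called higher in knockout XEN against knockout ES, where 22.6% of all genes were. Pcdh15, Pcdh20 and Pcdha12 were among those added, as were several Pcdhb genes. In wild-type XEN against knockout ES 36 of 67 were higher and 1 lower, against 21.5% and 19.5% of all genes. With the replicate block for line, 17 genes were higher and 2 lower in knockout XEN against wild-type XEN, 36 higher in knockout XEN against knockout ES, and 32 higher and 1 lower in wild-type XEN against knockout ES, where Pcdhga9 was added; the block changed no other call.

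Leaving out a library gave 8 to 18 higher and 0 to 2 lower calls in knockout XEN against wild-type XEN, 0 to 1 lower in wild-type XEN against knockout ES, and 0 to 4 higher and 0 to 3 lower between lines. Without both C4 libraries 1 gene was lower in knockout XEN against wild-type XEN. Between lines, 1 gene, Pcdh8, was lower in C4 with DESeq2 and 1 with no filter. The causes were not tested, beyond fewer libraries. Few reads limit the Pcdha genes in every library, and 2 libraries per XEN group limit every comparison with XEN cells.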
